A study of Danio rerio with 8 samples.

Results

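The 10 genes described here carry the transforming growth factor beta (TGF-beta) signal in zebrafish: the ligand genes tgfb1a, tgfb1b, tgfb2, tgfb3 and inhbaa, the receptor genes tgfbr1a and tgfbr2b, the signal carriers smad3a and smad3b, and the target gene ccn2a. They were taken by symbol from a counts table of 32520 genes, with no threshold on their values, and all 10 were found. Earlier results of these data were known when they were chosen. Of these, 4 were matched by symbol. The other 6 stand in the gene name table under a human symbol without the letter that marks the zebrafish copy. They were told apart by their neighbouring genes. These 6 shared 17 to 23 neighbours with the RefSeq gene of the zebrafish name, against at most 7 for the other copy.

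RNA was sequenced in bulk from ventricles of adult zebrafish that were not injured themselves. Their mothers were uninjured, and their fathers were either uninjured (labelled Pu-Fu) or had received a cryoinjury, in which part of the ventricle is killed with a frozen probe, and were crossed on day 7 after it (Pi-Fu). Each group had 4 libraries, numbered 1, 3, 4 and 5 with uninjured fathers and 1, 2, 4 and 7 with injured fathers, and each library pooled 4 siblings. The labels name no strain and do not say how many fathers stand behind a group, so the p-values measure the spread between pools.

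TGF-beta ligands are secreted bound to their own propeptide, stored in the matrix in this latent form, and act once released. The freed ligand joins a type II and a type I receptor kinase, the type I receptor phosphorylates SMAD2 and SMAD3, and these enter the nucleus with SMAD4 to switch on genes of matrix and scar formation, CCN2 among them. In the injured zebrafish heart, TGF-beta and activin signalling is known to act both on the transient scar and on the regrowth of heart muscle.

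Libraries held 8441014 to 16290169 counts. The atrium and bulbus arteriosus had been removed and red blood cells let out of the cut ventricle. The ventricular myosin gene vmhc was at 44100 to 70200 CPM (counts scaled to a library of 1000000, with TMM factors) and the atrial myosin gene myh6 at 48.3 to 270 CPM. The bulbus elastin gene elnb was at 0.467 to 4.18 CPM. Other markers of these lists were higher. The atrial markers summed to 1340 to 1960 CPM with uninjured and 1310 to 1850 CPM with injured fathers, most of it nppa. Bulbus smooth muscle markers summed to 124 to 218 against 112 to 156 CPM, with myh11a, acta2 and tagln each above elnb in every library. Haemoglobin genes took 0.0900% to 0.171% of the counts with uninjured fathers and 0.155% to 0.36% with injured fathers, highest in the injured library 4. The summed level of 12 endothelial and endocardial markers was 1720 to 2020 CPM with uninjured fathers and 1340 to 1610 CPM with injured fathers, with no overlap. It was lowest in the injured library 4 as well. The gene podxl, of a sialomucin of endothelium, made up 619 to 792 against 444 to 526 CPM of it. Without podxl the sums of the groups would overlap. Of these 12 markers, 2 (podxl and kdr) had an unadjusted p under 0.05, both with lower values for injured fathers, while 6 of the 12 had positive log2 folds, among them plvapb with 0.80; cdh5, the vascular cadherin gene, spanned 354 to 468 CPM against 354 to 484 CPM. Macrophage markers summed to 155 to 218 against 182 to 343 CPM, fibroblast and epicardial markers to 393 to 443 against 371 to 418 CPM, and thrombocyte markers to 192 to 268 against 181 to 243 CPM. Most of the macrophage sum was cd74a, at 131 to 194 against 143 to 306 CPM. Most of the thrombocyte sum was fgl2a, at 129 to 175 against 102 to 169 CPM. Of the tested thrombocyte markers, fgl2a (-0.24) and thbs1b (-0.14) had negative log2 folds. Positive ones were found for itga2b (0.24), gp1bb (0.45), gp9 (0.36), f13a1b (0.24) and nfe2 (0.26). In the other lists an unadjusted p under 0.05 was found with higher values for injured fathers for 3 of 7 tested erythrocyte markers (hbaa1, cahz and blvrb), the macrophage marker marco and the atrial marker nr2f1a, and with lower values for the macrophage marker csf1rb. Over all tested genes, 3.67% had such a p (edgeR) with higher values and 3.47% with lower values for injured fathers. Of all marker genes matched, 1 was at 0 in every library, the globin gene hbae5. In whole ventricle RNA, fewer cells of a type and less RNA per cell cannot be told apart, and the part of these markers in the results below was not tested.

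Divided by gene length, the 10 genes ranged from highly to scarcely expressed. The level of tgfb2 averaged 61.7 ± 11.4 CPM per kb (SD, n = 8 libraries), that of tgfbr2b 60.0 ± 11 CPM per kb and that of tgfb3 53.6 ± 13.6 CPM per kb. These are the genes of a pair of ligands and of a type II receptor, and they stood above 94.2% to 94.8% of the tested genes on that scale. Their ranges overlapped, and tgfb2 exceeded tgfbr2b in 5 of 8 libraries. Next came smad3b at 15.1 ± 10.3 CPM per kb, then tgfb1b at 6.3 ± 0.988 and tgfb1a at 4.99 ± 0.945 CPM per kb. In every library tgfb3 stood above smad3b and smad3b above tgfb1b, although the ranges over libraries touched. The target ccn2a was at 2.02 ± 1.05 CPM per kb and smad3a at 0.849 ± 0.219 CPM per kb. At the bottom were tgfbr1a with 0.336 ± 0.131 and inhbaa with 0.318 ± 0.121 CPM per kb, and either was the higher in 4 of 8 libraries. The annotated lengths behind this order run from 1242 bases for tgfb2 to 6173 bases for smad3a. An incomplete gene model leaves out reads as well as length, and could move a level per length in either direction.

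**Figure D1:**
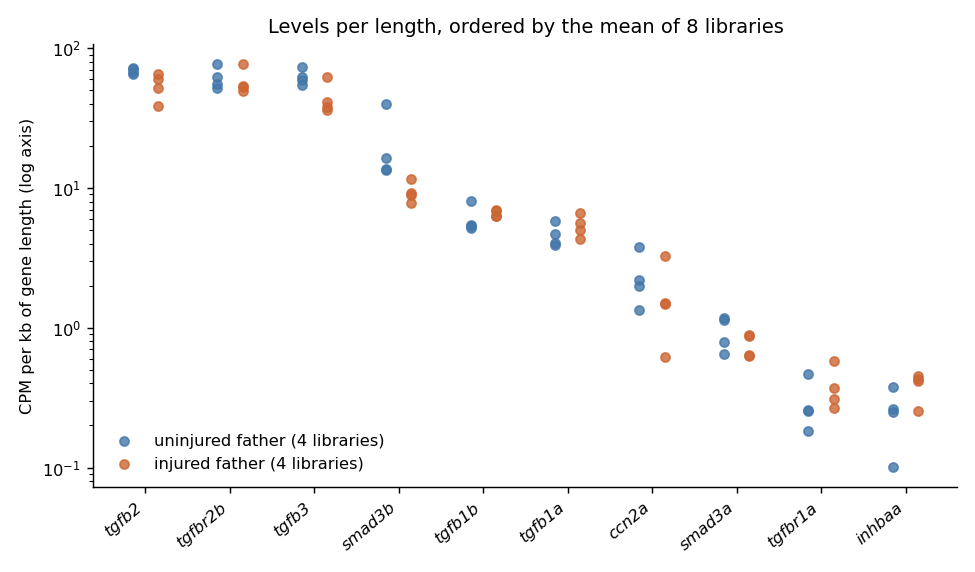
Level of each of the 10 genes in CPM per kb of annotated gene length (log axis), ordered by the mean of 8 libraries; each point is a library, in blue for uninjured and in orange for injured fathers. The genes tgfb2, tgfbr2b and tgfb3 lie between 36.3 and 77.0 CPM per kb, and tgfbr1a and inhbaa below 0.6 CPM per kb.

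Injured and uninjured fathers were compared with edgeR's quasi-likelihood test across 13604 genes with sufficient counts, and p-values were adjusted over all of them by the Benjamini-Hochberg method. Of the 10 genes, 9 entered this test and 0 passed it at an adjusted p of 0.05. Across all genes 0.0% passed, with 971 genes (7.14%) at an unadjusted p under 0.05. DESeq2 called 63 genes (0.473% of those it gave an adjusted p), none of them among the 10. At an unadjusted p under 0.05 stood 2 of the 9, tgfb3 and smad3b, both with lower values for injured fathers, where 3.47% of all tested genes did so in that direction and 3.67% in the other.

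Both abundant ligand genes had lower mean levels in offspring of injured fathers. For tgfb2 (ENSDARG00000027087, GRCz11 chromosome 16, 2745006 to 2807527, minus strand), a ligand needed for the forming heart in mice, the uninjured libraries 1, 3, 4 and 5 read 89.7, 88.4, 84.4 and 81.8 CPM. The injured libraries 1, 2, 4 and 7 read 81.6, 74.9, 48.0 and 64.1 CPM. The uninjured libraries lay close together and above all injured ones, but the nearest libraries of the groups differed by less than 1 CPM. Means were 86.1 ± 3.63 and 67.2 ± 14.7 CPM (SD, n = 4), a log2 fold of -0.36 (SE 0.18, 95% interval -0.76 to 0.04, edgeR adjusted p = 0.71). Groups that do not overlap with the injured side lower were found in 1.58% of all tested genes, and with the injured side higher in 2.6%; of the 9 genes, tgfb2 and smad3b were of the first kind and 0 of the second. Without the injured library 4 the log2 fold was -0.23, and with haemoglobin share as a covariate it was -0.13 (SE 0.24). The haemoglobin share was itself mostly higher with injured fathers. In every fit with this covariate, the father difference and the share therefore cannot be fully told apart. The part of blood content was not tested.

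The ligand gene tgfb3 (ENSDARG00000019367, chromosome 17, 52059020 to 52091999, minus strand), known in mice for its part in palate fusion, had the larger difference of these abundant ligands. It stood at 129, 117, 135 and 159 CPM in the uninjured libraries 1, 3, 4 and 5. In the injured libraries 1, 2, 4 and 7 it stood at 89.2, 78.4, 82.8 and 135 CPM. The injured libraries 1, 2 and 4 were below every uninjured one, and the injured library 7 lay within the uninjured range. Means were 135 ± 17.7 and 96.3 ± 26.1 CPM (SD, n = 4), a log2 fold of -0.49 (SE 0.20, 95% interval -0.92 to -0.05, edgeR adjusted p = 0.65). Without the injured library 7 the log2 fold was -0.70 (edgeR adjusted p = 0.28), and over the 17 alternatives no adjusted p of tgfb3 was lower. It was -0.21 once the haemoglobin share was a covariate. The unadjusted p of tgfb3 was under 0.05 in 10 of the 17 alternatives.

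The scarcer ligand copies had means that differed the other way. The gene tgfb1a (ENSDARG00000041502, chromosome 15, 2776506 to 2803313, minus strand), a zebrafish copy of the TGF-beta 1 gene, read 20.5, 25.5, 17.2 and 18.0 CPM with uninjured fathers. With injured fathers it read 22.2, 29.1, 24.8 and 19.0 CPM. The ranges overlapped over most of their width, with a log2 fold of 0.23 (SE 0.20, 95% interval -0.21 to 0.66, edgeR adjusted p = 0.82) that was 0.00086 with haemoglobin share as a covariate. Its paralogue tgfb1b (ENSDARG00000034895, chromosome 21, 21621042 to 21629828, plus strand) read 7.59, 7.52, 7.21 and 11.3 CPM with uninjured fathers and 8.88, 9.56, 8.87 and 9.75 CPM with injured fathers. The injured libraries exceeded the uninjured ones other than library 5, which was the highest of all 8. Means were 8.41 ± 1.95 and 9.27 ± 0.454 CPM, a log2 fold of 0.14 (SE 0.21, 95% interval -0.32 to 0.60, edgeR adjusted p = 0.89), and 0.31 without the uninjured library 5.

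The activin subunit gene inhbaa (ENSDARG00000012671, chromosome 24, 3050020 to 3062610, plus strand), whose product signals through the activin receptors to the same SMADs, was close to the detection limit with 127 reads in all 8 libraries. Uninjured libraries held 20, 12, 14 and 5 reads, or 1.46, 0.960, 1.01 and 0.390 CPM. Injured libraries held 18, 15, 13 and 30 reads, or 1.61, 1.65, 0.986 and 1.75 CPM. The injured libraries 1, 2 and 7 lay above every uninjured one and the injured library 4 lay among them. The log2 fold was 0.64 (SE 0.41, 95% interval -0.26 to 1.54, edgeR adjusted p = 0.75). It ranged from 0.06 with the replicate block, a term for each library number, to 0.99 with haemoglobin share as a covariate. Only the numbers 1 and 4 occur in both groups, so father differences in the block fit rest on those libraries alone.

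**Figure D2:**
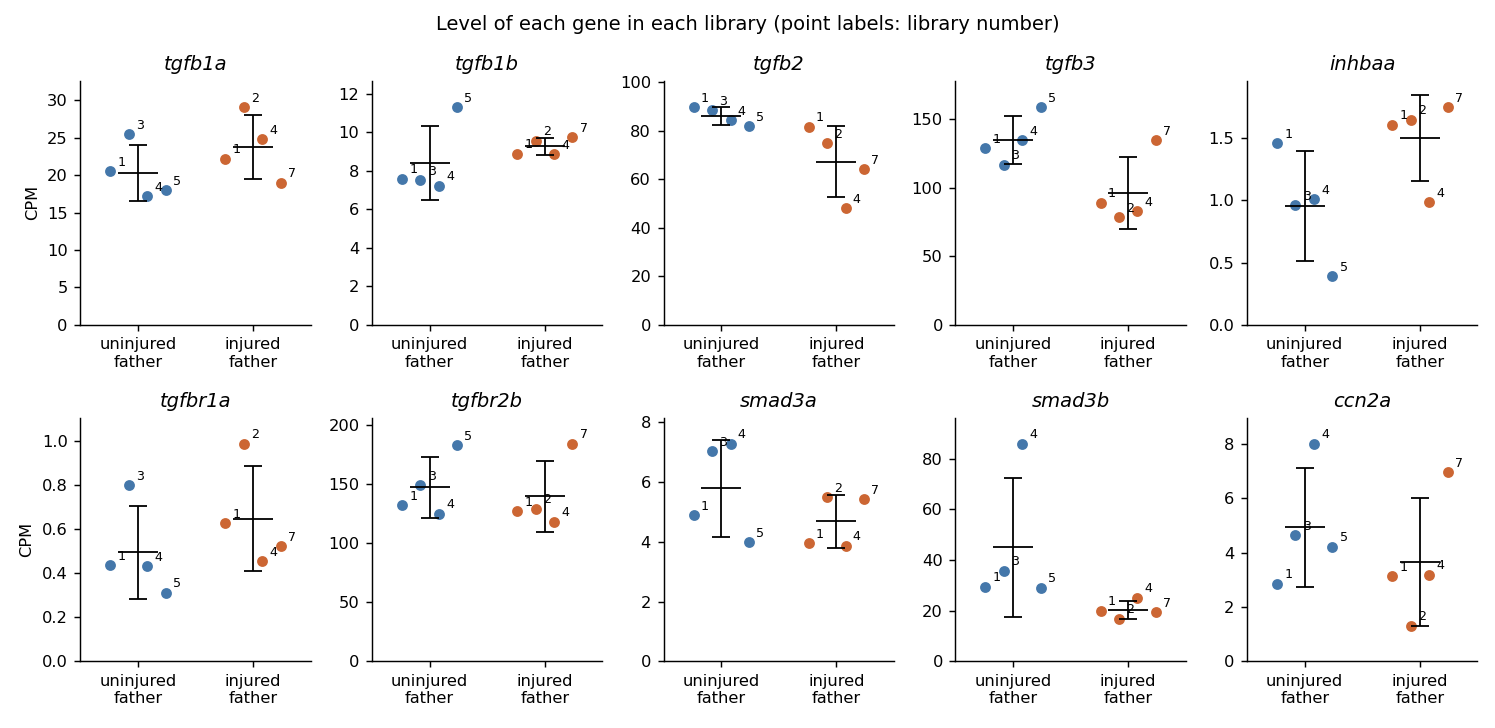
Level of each of the 10 genes in CPM (linear axes from 0), 1 point for each library with its number, blue for uninjured and orange for injured fathers; the bars are the mean and SD of 4 libraries. The groups do not overlap for tgfb2 and smad3b, and a single library stands away from its group for smad3b (uninjured 4, 85.8 CPM) and tgfb1b (uninjured 5, 11.3 CPM).

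Levels per length were summed over the 4 TGF-beta ligand genes tgfb1a, tgfb1b, tgfb2 and tgfb3. The activin subunit gene inhbaa and the ligand gene tgfb5 were not included. The sum was 142, 137, 140 and 152 CPM per kb with uninjured fathers. With injured fathers it was 118, 110, 88.9 and 125 CPM per kb, so that the groups did not overlap. Means were 142 ± 6.54 and 111 ± 15.8 CPM per kb (SD, n = 4), given as a description with no test. The genes tgfb2 and tgfb3 made up most of this sum, so it largely repeats their values above and is no separate result. How often such sums fail to overlap over all genes was not counted. The share of tgfb2 was 48.8% ± 3.85 with uninjured and 48.8% ± 7.48 with injured fathers, and that of tgfb3 was 43.8% ± 3.83 and 40.2% ± 7.77. The share of tgfb1b was 3.68% to 5.32% against 5.35% to 7.11%, with the injured side just above. That of tgfb1a was 2.68% to 4.23% against 3.44% to 6.32%. A share also rises when the sum falls, and the tgfb1b levels themselves overlapped (7.21 to 11.3 against 8.87 to 9.75 CPM). The log2 ratio of tgfb1a to tgfb1b reads was 1.27 ± 0.459 with uninjured and 1.34 ± 0.277 with injured fathers, a difference of 0.065 (exact two-sided permutation p = 0.8, also after adjustment over 2 ratios).

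**Figure D3:**
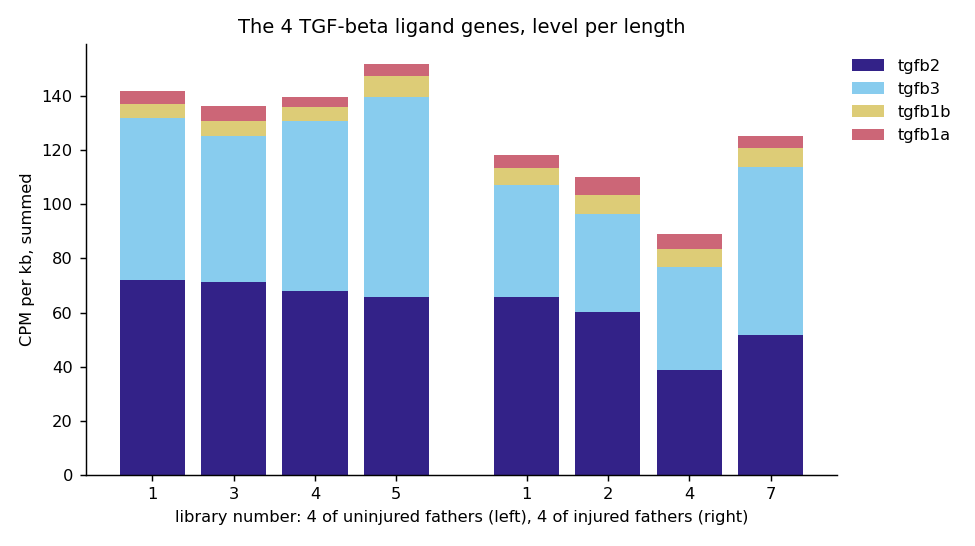
Stacked level per length (CPM per kb) of tgfb2, tgfb3, tgfb1b and tgfb1a in each library, with the 4 libraries of uninjured fathers on the left and the 4 of injured fathers on the right. Sums run from 137 to 152 on the left and from 88.9 to 125 on the right, and tgfb2 and tgfb3 form most of every bar.

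The receptor genes showed no difference that passed the test. The gene tgfbr2b (ENSDARG00000034541, chromosome 16, 39505163 to 39605661, minus strand), for the ligand-binding type II receptor, read 132, 149, 125 and 183 CPM with uninjured fathers. With injured fathers it read 127, 129, 118 and 184 CPM. The groups covered nearly the same range, each with 1 library well above the rest. The log2 fold was -0.08 (SE 0.19, edgeR adjusted p = 0.94), and its 95% interval of -0.49 to 0.34 leaves out a doubling or a halving. Its sign turned in 3 of the 17 alternatives. The type I receptor gene tgfbr1a (ENSDARG00000017494, chromosome 2, 23856045 to 23931536, minus strand) held 57 reads in all and was the 1 gene of the 10 below the filter on low counts. Its reads numbered 6, 10, 6 and 4 with uninjured fathers and 7, 9, 6 and 9 with injured fathers, or 0.496 ± 0.211 and 0.649 ± 0.237 CPM (SD, n = 4). The groups overlapped, and without the filter its log2 fold was 0.32 with an SE of 0.57.

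The largest difference of the 9 tested genes was in smad3b (ENSDARG00000010207, chromosome 18, 19772874 to 19806209, plus strand), a copy of the gene for the receptor-activated SMAD3. Uninjured libraries 1, 3, 4 and 5 read 29.4, 35.7, 85.8 and 29.0 CPM. Injured libraries 1, 2, 4 and 7 read 20.0, 16.8, 25.1 and 19.3 CPM. Every injured library was below every uninjured one, and the uninjured library 4 was far above the rest. Means were 45.0 ± 27.4 and 20.3 ± 3.48 CPM (SD, n = 4), a log2 fold of -1.15 (SE 0.34, 95% interval -1.89 to -0.40, edgeR adjusted p = 0.55). Without the uninjured library 4 the log2 fold was -0.63 (SE 0.20, edgeR adjusted p = 0.70). Its unadjusted p stayed under 0.05 in all 17 alternatives, while the adjusted p was never under 0.13. That uninjured library 4 was also the highest of the 8 in 24% of all tested genes, more than any other library. Its summed bulbus smooth muscle markers (217.7 CPM) and endothelial and endocardial markers (2021 CPM) were the highest of the 8 as well. Its macrophage marker sum (155.2 CPM) was the lowest. The part of these markers in its smad3b level was not tested.

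The paralogue smad3a (ENSDARG00000036096, chromosome 7, 34102661 to 34149263, minus strand) was read at 4.89, 7.04, 7.28 and 3.98 CPM with uninjured fathers. With injured fathers it was at 3.95, 5.49, 3.87 and 5.43 CPM. The uninjured libraries 3 and 4 were the highest and the groups overlapped otherwise, with a log2 fold of -0.31 (SE 0.27, 95% interval -0.89 to 0.28, edgeR adjusted p = 0.81). It was -0.19 and -0.18 without the uninjured library 3 or 4, and -0.61 with the replicate block. Per length, smad3b exceeded smad3a in every library, by 14.4 to 33.6 times with uninjured fathers and by 8.72 to 18.5 times with injured fathers. The log2 ratio of smad3a to smad3b reads was -2.58, -2.33, -3.55 and -2.85 with uninjured fathers and -2.33, -1.60, -2.69 and -1.83 with injured fathers. The difference of 0.72 was not past the exact two-sided permutation test (p = 0.11, adjusted p = 0.23 over 2 ratios; the smallest p possible is 0.029). A difference between the copies in their response was therefore not shown.

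The target gene ccn2a (ENSDARG00000042934, chromosome 20, 25340814 to 25343490, plus strand; formerly ctgfa) encodes a secreted matricellular protein, used widely as a readout of TGF-beta and of YAP activity. It read 2.85, 4.64, 8.0 and 4.22 CPM with uninjured fathers and 3.14, 1.32, 3.19 and 6.95 CPM with injured fathers. The spread within each group was larger than the difference of the means, 4.93 ± 2.19 and 3.65 ± 2.36 CPM (SD, n = 4). The log2 fold was -0.40 (SE 0.45, 95% interval -1.38 to 0.58, edgeR adjusted p = 0.85). It was -0.06 without the uninjured library 4, the highest, -0.14 without the injured library 2, the lowest, and -0.93 without the injured library 7 (edgeR adjusted p = 0.51).

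**Figure D4:**
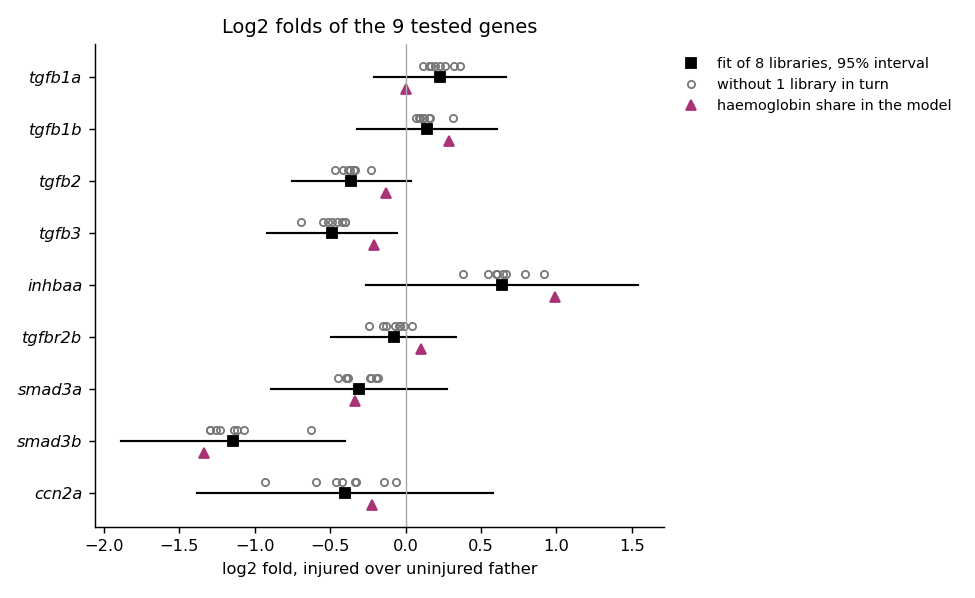
Log2 fold of injured over uninjured fathers for the 9 tested genes (squares, with the 95% interval of the edgeR fit), with the folds from 8 fits that each leave out 1 library (open circles) and from the fit with haemoglobin share as a covariate (triangles). The intervals of tgfb3 and smad3b lie below 0, and the smad3b circle at -0.63 is the fit without the uninjured library 4.

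Across the 8 libraries, the gene with the most similar profile (highest Pearson r of log2 CPM among 10858 genes, all from the same libraries) was SLC43A1 for smad3b (r = 0.956), an amino acid transporter gene with 25.8 CPM on average for uninjured and 8.91 CPM for injured fathers. For tgfb3 it was slc25a55a of the mitochondrial carrier family (r = 0.984; 154 and 91.3 CPM), and for tgfb2 it was SPTB, a spectrin beta gene (r = 0.973; 316 and 242 CPM). For tgfb1a it was TOP3A, for tgfb1b dusp11, for inhbaa ZNF395, for smad3a FOXO4 and for ccn2a lamp1b, with r from 0.932 for FOXO4 to 0.985 for TOP3A. With 8 libraries, the tenth gene of the smad3b, tgfb2 and tgfb3 rankings still had an r of 0.935, 0.95 and 0.969. These profiles include the difference between the father groups. The group means of the similar genes therefore largely follow from how they were picked and are no separate result.

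Other genes of the pathway were followed through lists of 5 kinds, and 0 of their members passed the test. Of 84 tested, 5 (5.95%, against 7.14% of all genes) had an unadjusted p under 0.05, all 5 with lower values for injured fathers. The share of all genes was 3.47% with lower and 3.67% with higher values for injured fathers. Over all tested genes the median log2 fold was -0.01, with 51.4% negative.

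Among genes that hold ligands latent or release them, 12 of 20 were tested, with 8 negative log2 folds and a median of -0.14. That median was 0.009 with haemoglobin share as a covariate, and with a library left out it ran from -0.23 (without the uninjured library 5) to -0.04 (without the injured library 4). The gene bmp1a, of a metalloproteinase that cuts procollagen and latent TGF-beta binding protein, was at 8.89 ± 3.73 CPM with uninjured and 4.26 ± 0.976 CPM with injured fathers (SD, n = 4), a log2 fold of -1.07 (edgeR adjusted p = 0.54). Its uninjured library 1 (5.40 CPM) lay below the injured library 2 (5.49 CPM), the one point of overlap. The uninjured library 4 was the highest at 13.9 CPM, and without that library the bmp1a log2 fold was -0.765. The integrin gene itgb1a had a log2 fold of -0.36, and itgb5 and itgb8, whose products pair with the alpha v integrin that can free latent TGF-beta, had 0.55 and 0.71 (edgeR adjusted p of 0.74 to 0.76 for these 3 genes). The itgb8 value rested on 59 reads in all 8 libraries, with an SE of 0.49. It ranged from 0.18 with the replicate block to 1.53 with haemoglobin share as a covariate.

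In the list of activin family ligands and inhibitors, 5 of 13 were tested and 4 had negative log2 folds, with a median of -0.33. That list also held the TGF-beta ligand gene tgfb5 and the follistatin-like genes fstl1a and fstl1b. The inhibitor genes fsta, fstb and fstl3 were below the count filter, so activin inhibition was not assessed through them. The gene fstl1a, of the follistatin-like secreted proteins, was at 3.43 to 6.56 CPM with uninjured fathers and 1.76 to 3.21 CPM with injured fathers, without overlap (log2 fold -0.81, edgeR adjusted p = 0.61). It was the 1 tested gene of this list without overlap, where 1.58% of all tested genes had no overlap with the injured side lower. Its log2 fold was -0.59 without the uninjured library 4, its highest, and -0.66 with haemoglobin share as a covariate. Its unadjusted p was under 0.05 in 13 of 17 alternatives. Its more abundant paralogue fstl1b was at 521 ± 169 and 469 ± 114 CPM (log2 fold -0.15), and the activin subunit genes inhbb and inhbab had log2 folds of -0.55 and -0.33. The median of this list was -0.08 with haemoglobin share as a covariate, and ran from -0.53 without the injured library 1 to 0.0006 without the uninjured library 5.

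Among the other receptors, 9 of 13 were tested, 5 with negative log2 folds and a median of -0.10 that was 0.03 without the uninjured library 4, -0.17 without the injured library 7 and -0.16 with haemoglobin share as a covariate. The copies tgfbr1b and tgfbr2a of the receptors above were at 1.54 ± 1.22 and 2.45 ± 1.80 CPM with uninjured fathers and at 0.920 ± 0.382 and 1.78 ± 0.237 CPM with injured fathers. Their log2 folds were -0.78 and -0.47, but -0.15 and 0.13 without the uninjured library 4, the highest for both. Only 127 reads in all were those of tgfbr1b. The activin receptor genes acvr1ba and acvr2ab had log2 folds of 0.27 and -0.61, and 0 of the 9 reached an unadjusted p under 0.05.

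Among other SMADs and their regulators, 24 of 27 were tested and 21 had negative log2 folds, with a median of -0.24. The uninjured library 4 was the highest of the 8 for 12 of these 24 genes, and without it the median was -0.10 with 18 negative; without the injured library 4 it was -0.14 and without the injured library 7 it was -0.37. The median was -0.02 with haemoglobin share as a covariate. The gene at an unadjusted p under 0.05 was skila, of the SnoN corepressor that restrains SMAD transcription, at 2.63 ± 1.30 and 1.06 ± 0.733 CPM (SD, n = 4; log2 fold -1.36, edgeR adjusted p = 0.63). Its log2 fold was -0.79 with haemoglobin share as a covariate, and its unadjusted p was under 0.05 in 12 of 17 alternatives. Without the uninjured library 4, its highest at 4.54 CPM, the skila log2 fold was -0.96. The gene held 189 reads in all 8 libraries. The pseudoreceptor copies bambia and bambib had log2 folds of -0.64 and 0.40, and the phosphatase gene ppm1ab had -0.39.

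Fibrotic response and matrix genes, the outcome of the pathway in a scar, gave 34 tested of 44, with 14 positive and 20 negative log2 folds and a median of -0.06. That median was -0.15 with haemoglobin share as a covariate, and ran from -0.12 without the uninjured library 5 to -0.02 without the uninjured library 3. The lysyl oxidase family gene loxl2a, of an enzyme that crosslinks collagen, was at 15.9 ± 13.3 and 6.54 ± 2.08 CPM (SD, n = 4; log2 fold -1.28, edgeR adjusted p = 0.67), with 34.1 CPM in the uninjured library 4. Without that library the loxl2a log2 fold was -0.58, it was -0.71 with the replicate block, and an unadjusted p under 0.05 was kept in 7 of 17 alternatives. The fibronectin gene fn1b was at 366 to 463 CPM with uninjured fathers and at 393, 352, 305 and 199 CPM with injured fathers (log2 fold -0.44, edgeR adjusted p = 0.70). Without the injured library 7, the lowest, it was -0.27, and fn1b had an unadjusted p under 0.05 in 5 of 17 alternatives. The ccn2a relative ccn1 had a log2 fold of -0.88 (edgeR adjusted p = 0.72) with 52.6 CPM in the uninjured library 4 and 10.3 to 20.9 CPM in the other uninjured ones; without that library it was -0.21. The proteoglycan gene vcanb had a log2 fold of -0.55.

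**Figure D5:**
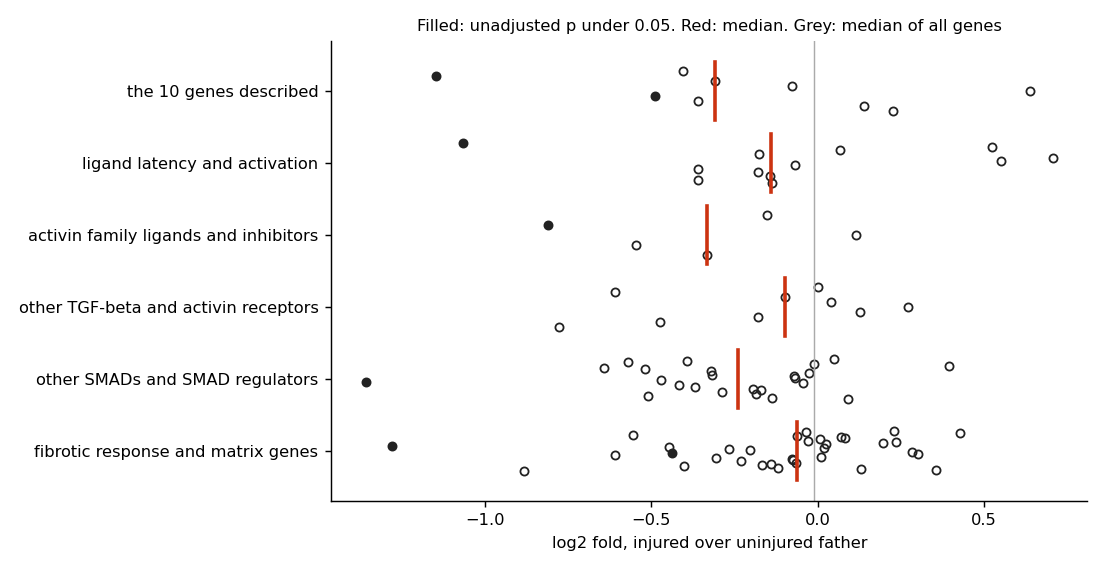
Log2 folds of injured over uninjured fathers for the tested genes of each list (1 point a gene, filled where the unadjusted edgeR p was under 0.05), with the median of each list in red and that of all tested genes (-0.01) in grey. Medians of the lists run from -0.33 to -0.06, and every filled point lies below 0.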

How the data were processed

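Per the labels' protocols, libraries were made from 1 ng of RNA (Ovation Single Cell, amplified in 2 rounds) and read as 60-base single reads. The deposited values are raw counts of reads per gene; per the file headers they were made with featureCounts 2.0.3 and the Ensembl 111 annotation of GRCz11, with strand option 0. Per the submitters' processing notes, STAR 2.7.10a, FastQC 0.11.9, MultiQC 1.12, R 4.4.0 and DESeq2 1.44.0 were used. No exon of the 10 genes overlaps another annotated gene's exons. Counts of amplified reads are not counts of molecules.

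Genes were tested with edgeR 4.0.16 (quasi-likelihood, robust, TMM factors, filterByExpr with a minimum count of 10) in R 4.3.3, without covariates; the code was checked on simulated counts. The SE was taken as the size of the log2 fold divided by the root of F, and the 95% interval uses the test's degrees of freedom. Ratios of 2 genes (pseudocount 0.5) were compared over 70 assignments of libraries. Levels per length are CPM over the gene length in the deposited table, which the authors' counting gave in bases. Other settings were DESeq2 1.42.0, limma 3.58.1 (voom), other scalings and filters, the haemoglobin share, the replicate block, and each of 8 libraries left out.

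The 10 genes, the lists and the tests were chosen with earlier results of these data known. Of 191 list symbols, 171 were matched, 107 by symbol and 64 by neighbours (15 on each side, at least 5 shared and 2 times the next candidate); RefSeq names are from assembly GRCz12tu. Outside the 10 genes, the text names up to 4 genes of each pathway list, those of smallest p (genes below the count filter and marker genes were named after their values were seen), and for each tested gene of the 10 the gene of most similar profile, 1 of which is not reported here. No sequences are shown. Libraries of a group differed by more than sampling noise (chi-square per degree of freedom 20.5 to 95.1), so each counts as 1 sample.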

Additional observations from a re-analysis of the deposited data

Results flagged for a closer look

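Of 64 groups of 4 libraries examined with Dixon's test (30 genes and 2 ratios, in both father groups), 2 held a library standing apart from the other three, where chance flags about 1 in 20. For smad3b the uninjured library 4 was at 85.8 CPM, with the next uninjured library at 35.7 CPM. For tgfb1b the uninjured library 5 was at 11.3 CPM, with the next at 7.59 CPM.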

How the results depend on the processing

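Over 17 alternatives, 8 of the 9 tested genes kept the sign of their log2 fold and 0 passed an adjusted p of 0.05 in any of them. The sign of tgfbr2b turned to 0.0108 with library sizes alone and 0.105 with the haemoglobin share, and with a library left out its log2 fold ran from -0.242 to 0.0427, positive without the uninjured library 5. Among other named genes the sign turned for inhbb (0.445 with the replicate block; -0.811 to 0.0884 with a library left out), fstl1b (0.344; -0.338 to 0.000597), tgfbr2a (-0.772 to 0.132 with a library left out), and inhbab (0.118) and vcanb (0.000788) with the haemoglobin share; the positive ends came without the uninjured library 5 for inhbb and fstl1b and without the uninjured library 4 for tgfbr2a. The count of the 10 genes at an unadjusted p under 0.05 was 1, smad3b, in place of 2 with library sizes alone, with the haemoglobin share and with the replicate block, and 1 to 3 when a library was left out (1 without the uninjured library 5 or the injured library 2 or 4, 3, with ccn2a, without the injured library 7); without the injured library 1 the 2 genes were tgfb2 and smad3b, and tgfb3 was not among them. Of all genes, DESeq2 called 63 and the replicate block 20, and 0 passed in every other setting. Genes at an unadjusted p under 0.05 numbered 423 with the haemoglobin share, 869 with the replicate block, 637 to 1328 with a library left out (fewest without the injured library 4), and 971 in the main fit, 499 higher and 472 lower. That split was 761 and 267 with library sizes alone, which moved the median log2 fold of all genes from -0.01 to 0.07, 594 and 369 with upper-quartile factors, and 250 and 619 with the replicate block. The difference in the tgfb1a to tgfb1b ratio ranged from -0.139 without the uninjured library 5 to 0.226, and was -0.0223 without the injured library 2. That in the smad3a to smad3b ratio ranged from 0.477 to 0.91. In TPM, all 10 genes kept their place in the order of levels. List medians were recomputed in settings chosen after seeing the data. The groups share only the numbers 1 and 4, whose libraries deviated from their group means with correlations of 0.115 and -0.281, so the numbers are not shown to pair the pools. The replicate block, counted among the 17 alternatives, takes its father differences from the libraries with these numbers alone. The causes of these changes were not tested. For tgfbr1a and inhbaa, with few reads, the SE of the log2 fold was 0.57 (without the filter) and 0.41. Such an SE limits what could be seen, and the smallest fold that could be seen was not computed.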

Other observations

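Some pathway genes were below the filter on low counts, and those named here were chosen after their values were seen. The cytokine genes il11a and il11b held 28 and 12 reads over all 8 libraries, at most 0.584 and 0.56 CPM. The tenascin gene tnc held 17 reads, the fibroblast activation gene fap 20, and ccn2b, the other copy of ccn2a, 54. The ligand gene tgfb5 held 80 reads, at most 2.02 CPM, highest in the uninjured library 4. The follistatin genes fsta and fstb held 1 and 20 reads, and the inhibin alpha gene inha was at 0 reads in all 8 libraries. Differences between the groups were not tested for these genes.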
